A study of Mus musculus with 5 samples.

Results

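A set of 10 genes of the Notch pathway was followed across the cells of the young mouse ovary: the ligands Jag1, Jag2 and Dll4, the receptors Notch1, Notch2 and Notch3, and the transcriptional targets Hes1, Hey1, Hey2 and Heyl. They were chosen by name, as 10 of the 31053 genes counted, and each was found by its symbol in all 5 libraries. Untreated C57BL6/J ovaries were dissociated with trypsin at 2, 3, 4, 5 and 6 wk of age, and live cells were recovered by flow sorting for 3′ droplet sequencing, with 1 library per age. The 5 libraries held 48163 cells, with totals of 93438618 to 144609431 unique molecular identifiers (UMIs, each counting 1 captured transcript) and median depths of 9056 to 12424 UMIs per cell. An age is a single library, so ages carry no replicate and no test between them was made. The number of mice per library was not given in the sources used here. Among 47890 distinct cell barcodes, 273 occurred in 2 or more libraries, 18 to 35 for each pair.

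Of these cells, 39660 lay in clusters that could be named from marker genes: 17630 granulosa-like, 13961 stromal-like, 4106 smooth muscle-like, 1246 theca-like, 862 pericyte-like, 713 blood endothelial-like, 232 lymphatic endothelial-like, 495 hematopoietic-like, 324 surface epithelial-like and 91 rete ovarii-like. All markers of a class were highest in that class except in the rete ovarii-like cells, where 2 of 5 were, and those cells are left out of the order of classes. Germ cells formed no class. Levels are given as counts scaled to 1000000 (CPM), the UMIs of a gene summed over a group of cells and divided by all UMIs of the same cells, and series of 5 values run from 2 to 6 wk. The theca-like class was uneven between libraries, its 5 markers summing to 3858, 1017, 2252, 10101 and 1718 CPM. Intervals, given in parentheses after a value, are at 95% and cover counting error only. Levels are compared between groups of cells for 1 gene and not between genes, since 3′ counts are not on a scale per transcript length. Fewer cells with a transcript and less transcript per cell cannot be told apart in summed levels.

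Notch signalling passes between cells in contact. A Jagged or Delta-like ligand on one cell binds a Notch receptor on its neighbour, the receptor is cleaved, and its intracellular part enters the nucleus, where it joins the DNA-binding protein RBPJ and switches on genes of the Hes and Hey families, which encode transcriptional repressors. In vessels, Dll4 and Notch1 take part in the choice between sprouting and stable endothelium, and Notch3 is a receptor of mural cells. In the ovary, Jagged ligand from the oocyte and Notch2 on pregranulosa cells are known to act in the formation of primordial follicles.

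RBPJ binds DNA around the core TGGGAA, read as TTCCCA on the opposite strand. RefSeq promoters of GRCm38.p6, from 250 bases before to 50 after the start of transcription, were matched for 7 of the 10 genes, all but Hes1, Hey1 and Heyl. On either strand the core occurred in 25.56% of 32851 promoters. Among the 7 it occurred in that of Hey2, beginning 207 and 3 bases before the start. Both matches lie within the longer GTGGGAA or TTCCCAC, which overlaps the core and is held by 6.38% of all promoters. The Hey2 promoter (chr10:30842734-30843033, minus strand) is shown because Hey2 was the target called higher in granulosa-like than in mesenchymal cells, with the core in capitals. The promoters of Notch3 (chr17:32166841-32167140, minus strand) and Dll4 (chr2:119325534-119325833, plus strand) are shown as those of the genes with the steepest differences between classes, and neither window holds the core.
Hey2: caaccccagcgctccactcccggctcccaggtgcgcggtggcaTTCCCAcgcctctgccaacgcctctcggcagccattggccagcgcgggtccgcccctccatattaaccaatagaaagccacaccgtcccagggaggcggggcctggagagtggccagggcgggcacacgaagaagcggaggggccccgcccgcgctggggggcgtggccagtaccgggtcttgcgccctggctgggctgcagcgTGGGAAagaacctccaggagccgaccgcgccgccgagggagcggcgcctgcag
Notch3: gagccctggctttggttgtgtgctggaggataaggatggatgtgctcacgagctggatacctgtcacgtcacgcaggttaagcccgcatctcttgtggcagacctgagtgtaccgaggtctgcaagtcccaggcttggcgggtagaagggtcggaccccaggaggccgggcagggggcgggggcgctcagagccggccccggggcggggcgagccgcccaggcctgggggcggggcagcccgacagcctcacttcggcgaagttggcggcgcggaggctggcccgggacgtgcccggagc
Dll4: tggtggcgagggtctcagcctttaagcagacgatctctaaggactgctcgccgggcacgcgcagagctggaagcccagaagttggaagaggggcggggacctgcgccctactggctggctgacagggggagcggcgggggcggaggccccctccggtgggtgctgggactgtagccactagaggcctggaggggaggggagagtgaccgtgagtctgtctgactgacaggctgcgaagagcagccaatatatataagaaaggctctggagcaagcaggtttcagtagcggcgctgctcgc
The letters describe these windows and do not show binding. No member overlaps another counted gene on its own strand.

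Among the ligands, Jag2 and Dll4 were highest in blood endothelial-like cells in 5 of 5 libraries. Jag1 was shared by blood endothelial-like cells, pericyte-like cells and, at some ages, theca-like cells.

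**Figure D1:**
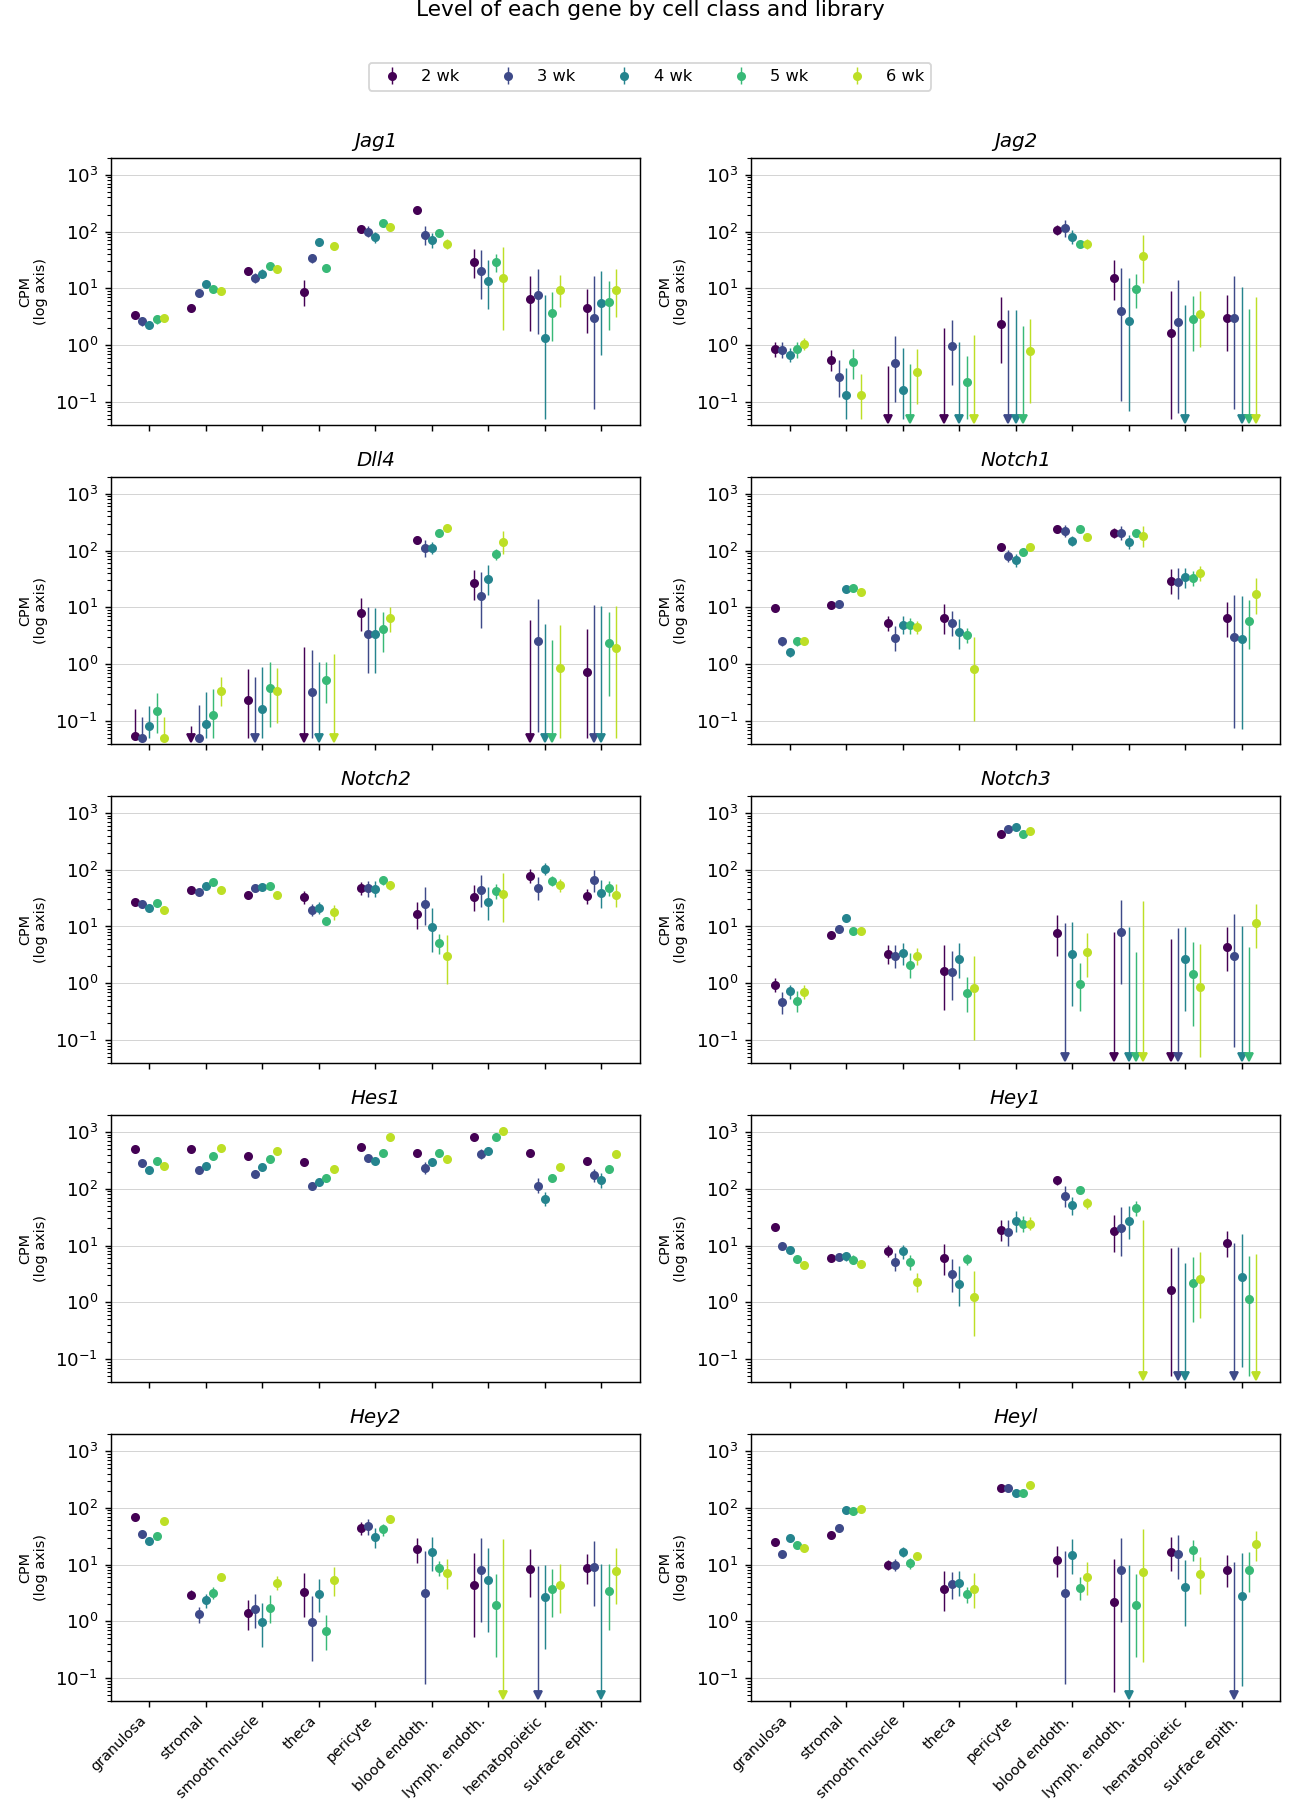
Level of each of the 10 genes (vertical, CPM, log axis) in 9 cell classes (horizontal), 1 point per library coloured by age, with exact Poisson 95% intervals; triangles mark libraries with 0 UMIs, and values under 0.05 are drawn at 0.05. Jag2 and Dll4 stand out in blood endothelial-like cells, Notch3 in pericyte-like cells at 424 to 576, and Hey2 in granulosa-like and pericyte-like cells, whereas Hes1 and Notch2 are spread over all classes.

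Dll4, a Delta-like ligand, reached 155, 112, 111, 207 and 248 CPM in blood endothelial-like cells. In lymphatic endothelial-like cells it stood at 26.5, 16.2, 32.3, 86.1 and 143, below the blood endothelial-like cells of the same library at every age. The other classes were far lower, at 5.39 in pericyte-like cells and at most 1.16 elsewhere over the libraries together. Antral granulosa cells held 0 UMIs among 2335 cells, which allows up to 0.0814 CPM at 3 counts. A Dll4 UMI was found in 57.6% of blood endothelial-like cells (median depth 8911 UMIs), in 0.404% of hematopoietic-like cells (6692 UMIs) and in 0.108% of granulosa-like cells (15123 UMIs). With each cell thinned to 2000 UMIs, which left out 143 blood endothelial-like, 89 hematopoietic-like and 43 granulosa-like cells, the shares were 28.1%, 0.246% and 0.0171%.

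Jag2, a Jagged ligand, gave 106, 115, 80.2, 59.6 and 61.5 CPM in blood endothelial-like cells. Lymphatic endothelial-like cells came next at 2.69 to 37.7, below that range. The other classes were at or under 2.35 over the libraries together.

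Jag1, the other Jagged ligand, stood at 113, 99.8, 79.5, 142 and 119.9 CPM in pericyte-like cells. Blood endothelial-like cells gave 243, 86.8, 70.4, 92.8 and 59.7, above pericyte-like cells at 2 wk and below them in the other 4 libraries, so the order of these classes was not stable. Theca-like cells, named from markers of the steroid-making cells around the follicle, gave 8.67, 33.8, 66.5, 22.5 and 56.5. The lowest of these values came from the 103 theca-like cells of the 2 wk library. The theca markers of this class, given above, were highest at 2 and 5 wk, the ages with its lowest Jag1. The part of this uneven class in its Jag1 values was not tested. Smooth muscle-like cells kept within 15.3 to 24.8, stromal-like cells within 4.57 to 11.9 and granulosa-like cells within 2.30 to 3.35, ranges that did not overlap. A Jag1 UMI was seen in 48.3% of pericyte-like cells. The 4.05% of granulosa-like cells was close to the 3.43% of hematopoietic-like cells.

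The receptors divided the same tissue differently. Notch1 was highest in both endothelial classes, Notch3 in pericyte-like cells, and Notch2 was present nearly everywhere but least in blood endothelial-like cells.

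Notch1 gave 243, 223, 149, 242 and 173 CPM in blood endothelial-like cells and 206, 207, 142, 206 and 181 in lymphatic endothelial-like cells. The classes overlapped, with a pooled ratio of lymphatic over blood of 0.877 (0.788 to 0.973). Pericyte-like cells followed at 117, 81.4, 67.2, 94.9 and 117, below both endothelial classes in each library. Hematopoietic-like cells held 27.8 to 39.9, stromal-like cells 10.9 to 21.8 and smooth muscle-like cells 2.92 to 5.32.

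Notch3, the mural cell receptor, stood at 424, 518, 576, 429 and 473 CPM in pericyte-like cells. Stromal-like cells gave 7.08, 9.06, 14.3, 8.50 and 8.48, and smooth muscle-like cells, which are contractile too, 3.24, 3.08, 3.37, 2.12 and 3.03. No library of either class came near the pericyte-like range. Notch3 was among the 10 leading genes of the pericyte-like cluster, so part of this contrast is built into the class. When all Notch genes were left out of the principal components, pericyte-like cells numbered 857 and their Notch3 level was 472. A Notch3 UMI was seen in 87.5% of pericyte-like cells. In granulosa-like cells the share, 0.743%, lay under the 1.01% of hematopoietic-like cells, at median depths of 15123 and 6692 UMIs. Whether these low shares are background was not tested.

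Notch2 had a flatter profile, with 44.7, 41.1, 51.9, 59.7 and 43.9 CPM in stromal-like cells and 27.2, 24.7, 21.5, 25.9 and 19.2 in granulosa-like cells. Hematopoietic-like cells ranged from 48.0 to 103 and were the highest class in 3 of 5 libraries. Blood endothelial-like cells gave 16.4, 24.8, 9.83, 5.11 and 2.98, the lowest class at 2, 4, 5 and 6 wk. Their place for Notch2 was thus opposite to that for Notch1. Theca-like cells were low as well, at 12.4 to 33.0.

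Among the targets, Hes1 was broad, Hey1 was led by blood endothelial-like cells and Heyl by pericyte-like cells, and Hey2 was shared between granulosa-like and pericyte-like cells.

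Among the classes, Hes1 was highest in lymphatic endothelial-like cells in 5 of 5 libraries, at 825, 405, 470.4, 816 and 1048 CPM. Within the granulosa-like cells, given below, the primary group was above these values at 3 and 4 wk and the primordial group at 3 and 5 wk. Pericyte-like cells gave 545, 352, 314, 432 and 819, stromal-like cells 505, 216, 254, 376 and 519 and granulosa-like cells 498, 281, 213, 310.3 and 254. In these 4 classes the 3 and 4 wk libraries were below that of 2 wk. The immediate early genes Jun, Fos and Egr1, which respond to handling of cells, did not share one course over the libraries. In granulosa-like cells Jun gave 1100, 2531, 3002, 2768 and 1598 CPM, Fos 1342, 1327, 1627, 2335 and 1346 and Egr1 868, 942, 945, 1236 and 1033. In stromal-like cells Jun gave 1819, 4329, 4417, 4070 and 2135, Fos 3785, 3496, 4004, 4991 and 3808 and Egr1 2144, 2432, 2613, 2985 and 2784. Their part in the Hes1 values was not tested.

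Hey1 in blood endothelial-like cells reached 142, 74.4, 50.8, 94.2 and 55.5 CPM, above every other class in each library. Within the granulosa-like cells, given below, the primordial group was slightly above the blood endothelial-like value in the youngest library. That group was slightly below it in the next library and well below it at the later ages. Lymphatic endothelial-like cells held 31.1 over all libraries, pericyte-like cells 22.8, granulosa-like cells 9.67 and stromal-like cells 5.76.

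Hey2 gave 69.0, 34.6, 26.1, 31.5 and 58.1 CPM in granulosa-like cells and 43.8, 47.0, 30.2, 41.6 and 63.5 in pericyte-like cells, and these ranges overlapped. The theca-like, stromal-like and smooth muscle-like classes lay between 0.674 and 6.06 in every library, under all granulosa-like values. A Hey2 UMI was present in 37.8% of granulosa-like cells and 2.42% of hematopoietic-like cells, and in 7.89% and 0.246% after thinning to 2000 UMIs.

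Heyl stood at 221, 224, 186, 180.4 and 255 CPM in pericyte-like cells. Stromal-like cells gave 33.1, 44.0, 92.3, 86.4 and 94.7 and granulosa-like cells 25.5, 15.6, 29.7, 22.1 and 19.5. The 3 ranges did not overlap, though the primordial group within the granulosa-like cells, given below, overlapped the stromal-like range. Theca-like cells, at 3.00 to 4.83, and lymphatic endothelial-like cells, at 2.67 over all libraries, had little.

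The classes were then set against each other within each library. A gene was called when its ratio was at least 2-fold in the same direction in all 5 libraries, and genes under 200 UMIs in the groups together were not read. A gene can thus pass this limit only through the group where it is high. The shares of all genes carry the same limit. The classes come from the same expression values, so this is a description and not a test.

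In granulosa-like cells against mesenchymal cells (the theca-like, stromal-like and smooth muscle-like classes pooled), 3 of the 9 members with enough UMIs were called, against 18.8% of all 14229 genes tested. Hey2 was higher in granulosa-like cells by 25.3, 25.8, 12.2, 14.5 and 10.1-fold, where 7.67% of all genes were called higher. Jag1 and Notch3 were lower, with pooled ratios of 0.217 (0.201 to 0.234) and 0.0965 (0.0829 to 0.112), where 11.2% were called lower. Notch1 had ratios of 1.01, 0.263, 0.101, 0.191 and 0.175 and Heyl of 0.894, 0.442, 0.433, 0.457 and 0.271, with 2 wk the one library of each that missed the call. Without the 2 wk library the calls numbered 6, with Jag2 added as higher and Notch1 and Heyl as lower. A call over fewer libraries is easier to reach, and the share of all genes called that way is not given here. The median ratio of the members tested was 0.583, beside 1.13 for all genes tested.

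In blood endothelial-like cells against all other named cells, 6 of 10 members were called, against 16.8% of 14766 genes tested. Dll4 was higher by 635, 886, 493, 168 and 567-fold, the widest contrast of the 10 genes in these cells. The other named cells held 28, 11, 24, 119 and 57 Dll4 UMIs, so these ratios are imprecise. Lymphatic endothelial-like cells gave 12, 4, 12, 90 and 19 of those UMIs. Jag2 (81.8 to 176), Notch1 (16.8 to 30.1), Hey1 (6.54 to 14.7) and Jag1 (6.11 to 37.0) were higher too, where 7.4% of all genes were. Heyl was lower, at 0.107 to 0.417, where 9.39% were called lower. These cells thus held each of the 3 ligands, 1 of 3 receptors and 1 of 4 targets above the call. The median ratio of the members was 4.92, beside 0.863 for all genes tested.

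In pericyte-like cells against all other named cells, 4 of 10 members were called, each higher, against 13.1% of genes tested and 5.59% called higher. They were Notch3 (116 to 165), Jag1 (10.3 to 15.5), Heyl (4.55 to 9.31) and Notch1 (4.28 to 11.4). All 5 blood endothelial markers were above 0 in the pericyte-like cells and summed to 335 CPM there, beside 3528 in blood endothelial-like cells. Their part in the Notch1 and Jag1 values was not tested. Against smooth muscle-like cells, 6 of 8 members tested were higher in pericyte-like cells (Jag1, Notch1, Notch3, Hey1, Hey2 and Heyl), where 9.96% of all genes were called and 6.58% were higher. Among these the pooled ratio was 159.8 (133 to 193) for Notch3, 20.2 (16.1 to 25.5) for Hey2 and 17.9 (16.2 to 19.8) for Heyl. The smooth muscle markers summed to 4149 CPM in pericyte-like cells, equal to the 4149 of the pericyte markers there, and to 11006 in smooth muscle-like cells. At 2, 3 and 4 wk they were above the pericyte markers in pericyte-like cells, so this class is not clear of smooth muscle transcripts. Their part in these ratios was not tested.

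Theca-like cells were lower than stromal-like cells for Notch3, at 0.129 (0.0855 to 0.187), and Heyl, at 0.0539 (0.0431 to 0.0666), which made 2 of 8 members tested against 10.9% of all genes called and 8.09% called lower. Jag1 was 4.00-fold higher in theca-like cells over the libraries together, but its ratio at 2 wk, 1.90, was under the call. Smooth muscle-like cells were lower than stromal-like cells for Notch1 (0.285), Notch3 (0.328) and Heyl (0.185), 3 of 8 members where 7.78% of genes were called and 5.11% were lower. Lymphatic were lower than blood endothelial-like cells for Jag1, at 0.243 (0.182 to 0.320), 1 of 6 members where 7.24% were called and 4.83% were lower.

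**Figure D2:**
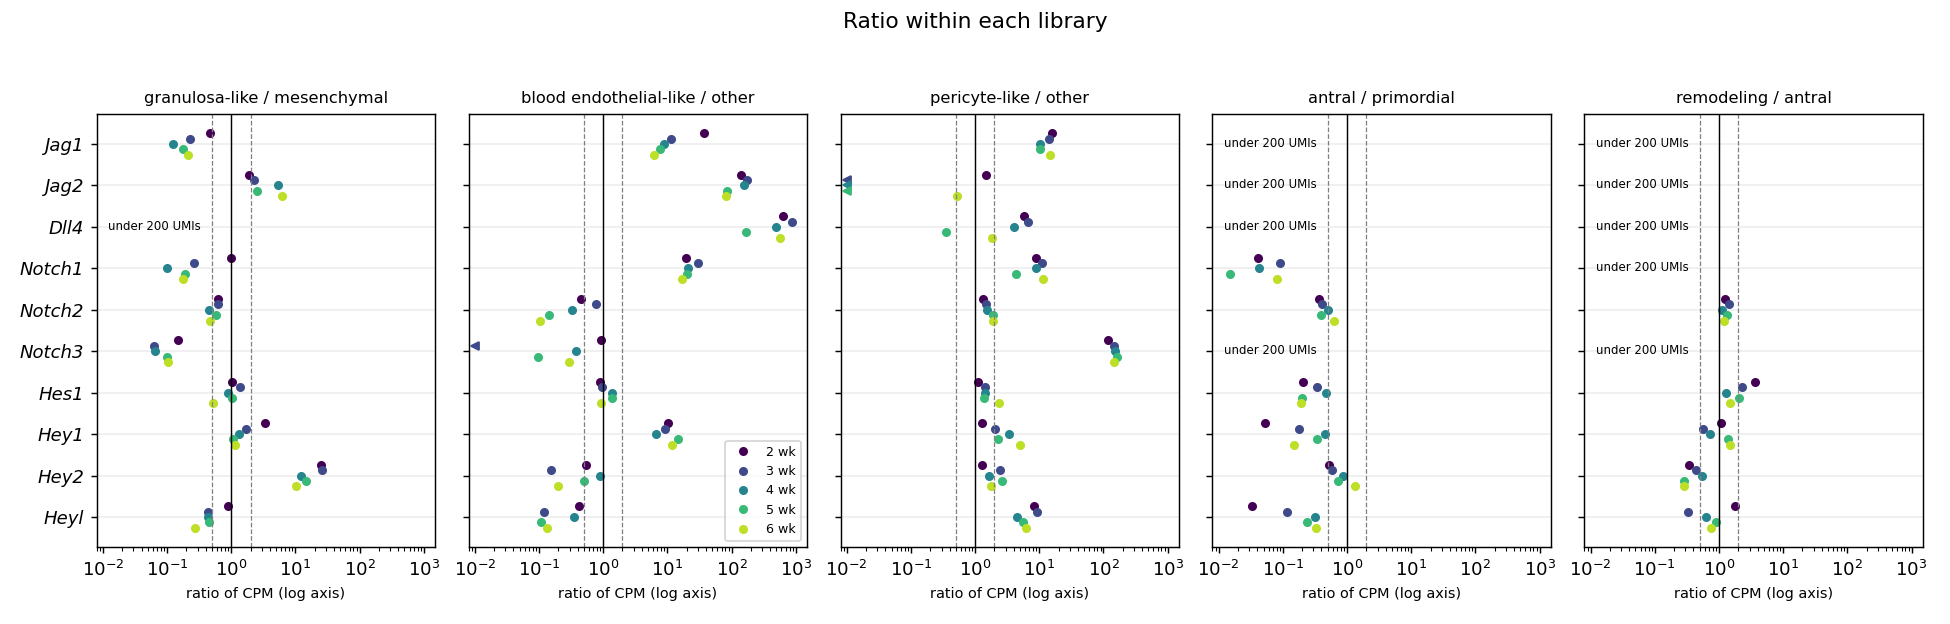
Ratio of CPM between the groups named for each panel (horizontal, log axis) for each gene (vertical), 1 point per library coloured by age; dashed lines mark 2-fold either way, triangles mark ratios drawn at 0.01, and genes under 200 UMIs are marked as such. Dll4 lies at 168 to 886 in blood endothelial-like cells and Notch3 at 116 to 165 in pericyte-like cells, while Hey2 is past the 2-fold line in all libraries for granulosa-like over mesenchymal cells.

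The rest of the pathway was read from 41 further genes, among them other ligands, Notch4, glycosyltransferases, proteases, the nuclear complex and inhibitors. In granulosa-like against mesenchymal cells, 0 of 38 tested genes were called higher and 4 lower, where 7.67% and 11.2% of all genes were. The share called lower was thus near that of all genes. Those called were Neurl1a, Neurl1b, Numbl and Dtx4. Dtx4, of the Deltex family of ubiquitin ligases, had a pooled ratio of 0.0620. Rbpj, which encodes the DNA-binding partner of the cleaved receptor, stood at 68.4 to 83.3 CPM in granulosa-like and 40.3 to 49.5 in stromal-like cells.

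In blood endothelial-like cells, 7 of 40 tested pathway genes were called higher (Dll1, Notch4, Lfng, Mfng, Maml2, Numb and Nrarp) and 2 lower (Dlk1 and Dtx1), where 7.4% and 9.39% of all genes were. Notch4, a receptor of endothelium, gave 86.3, 89.9, 96.6, 46.2 and 46.6 CPM there and 1.33 in lymphatic endothelial-like cells over all libraries. Mfng, a fringe glycosyltransferase that modifies the receptor, stood at 84.1, 80.6, 86.8, 106 and 123. Lfng, though called, stood at 6.62 in blood endothelial-like cells over all libraries, below 19.6 in lymphatic endothelial-like and 36.8 in hematopoietic-like cells. Dlk1 had 1 UMI in all blood endothelial-like cells. At 3, 4 and 6 wk its upper limits there, 11.4, 6.04 and 2.20, exceeded the 7.60, 1.66 and 1.69 of the other named cells, so its call is imprecise. In pericyte-like cells 4 of 40 were higher, Neurl1b, Dtx3, Dtx4 and Nrarp, where 5.59% of all genes were. Nrarp, a Notch target that restrains the pathway, reached 205, 92.9, 81.8, 189 and 243 in pericyte-like cells and 107, 40.3, 49.1, 52.9 and 98.5 in blood endothelial-like cells. The endothelial classes differed in Dtx1, at 81.8, 142, 118, 164 and 166 in lymphatic and 0.232 over all libraries in blood endothelial-like cells.

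Within the granulosa-like cells, a second clustering gave groups named for stages of follicle growth: 822 primordial, 2348 primary, 3042 secondary and 2335 antral cells. Beside them were 3824 mitotic cells and 3176 cells of the group that the study names remodeling. The mitotic group was named from markers before profiles were compared. Its clusters of 1418 and 813 cells had profiles closest to a cluster that the study counts as secondary (r 0.965 and 0.829). These cells are not counted as secondary here. The primordial group was named from 3 detected stage markers alone, and 2 stromal markers were detected in it too. Its closest study profile was a primary cluster (r 0.619), and the study's primordial cluster was not among the 10 profiles compared. The secondary clusters were named by profile (r 0.881 and 0.925). In both, the best-scoring marker list was that of primary cells, with 6 detected. One cluster of the antral group, with 1040 of its cells, was led by the cell-cycle genes Ccnb2, Cenpa and Birc5, and one of the secondary group, with 908 cells, by the replication genes Uhrf1, Mcm3 and Mcm5, so cycling cells are not confined to the mitotic group. Over all libraries the first of these held Heyl at 37.6 CPM and Hey2 at 39.1, beside 8.27 and 5.67 for Heyl and 75.2 and 90.4 for Hey2 in the other 2 antral clusters. The second held Heyl at 21.7 and Hey1 at 10.51, beside 10.45 and 5.83 in the other secondary cluster. One further group of 1723 cells, led by Cald1, with Ghr among its leading genes, had a profile close to a cluster that the study counts as antral (r 0.943 across genes). Fewer than 3 antral markers passed the naming limits in it, and its best-scoring marker list was that of remodeling cells, with 4 detected. It was therefore left without a stage name and is given under Cald1 and Ghr. A last cluster of 360 cells, with 5 stromal markers detected and 43.06% called doublets, also got no stage name. Its cells stay in the granulosa-like class, and their part in the values of that class was not tested. The naming limits were set after the clusters were seen. Notch1, Notch2, Hey1 and Heyl were highest in the primordial group in 5 of 5 libraries, and Hey2 in 4 of 5.

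**Figure D3:**
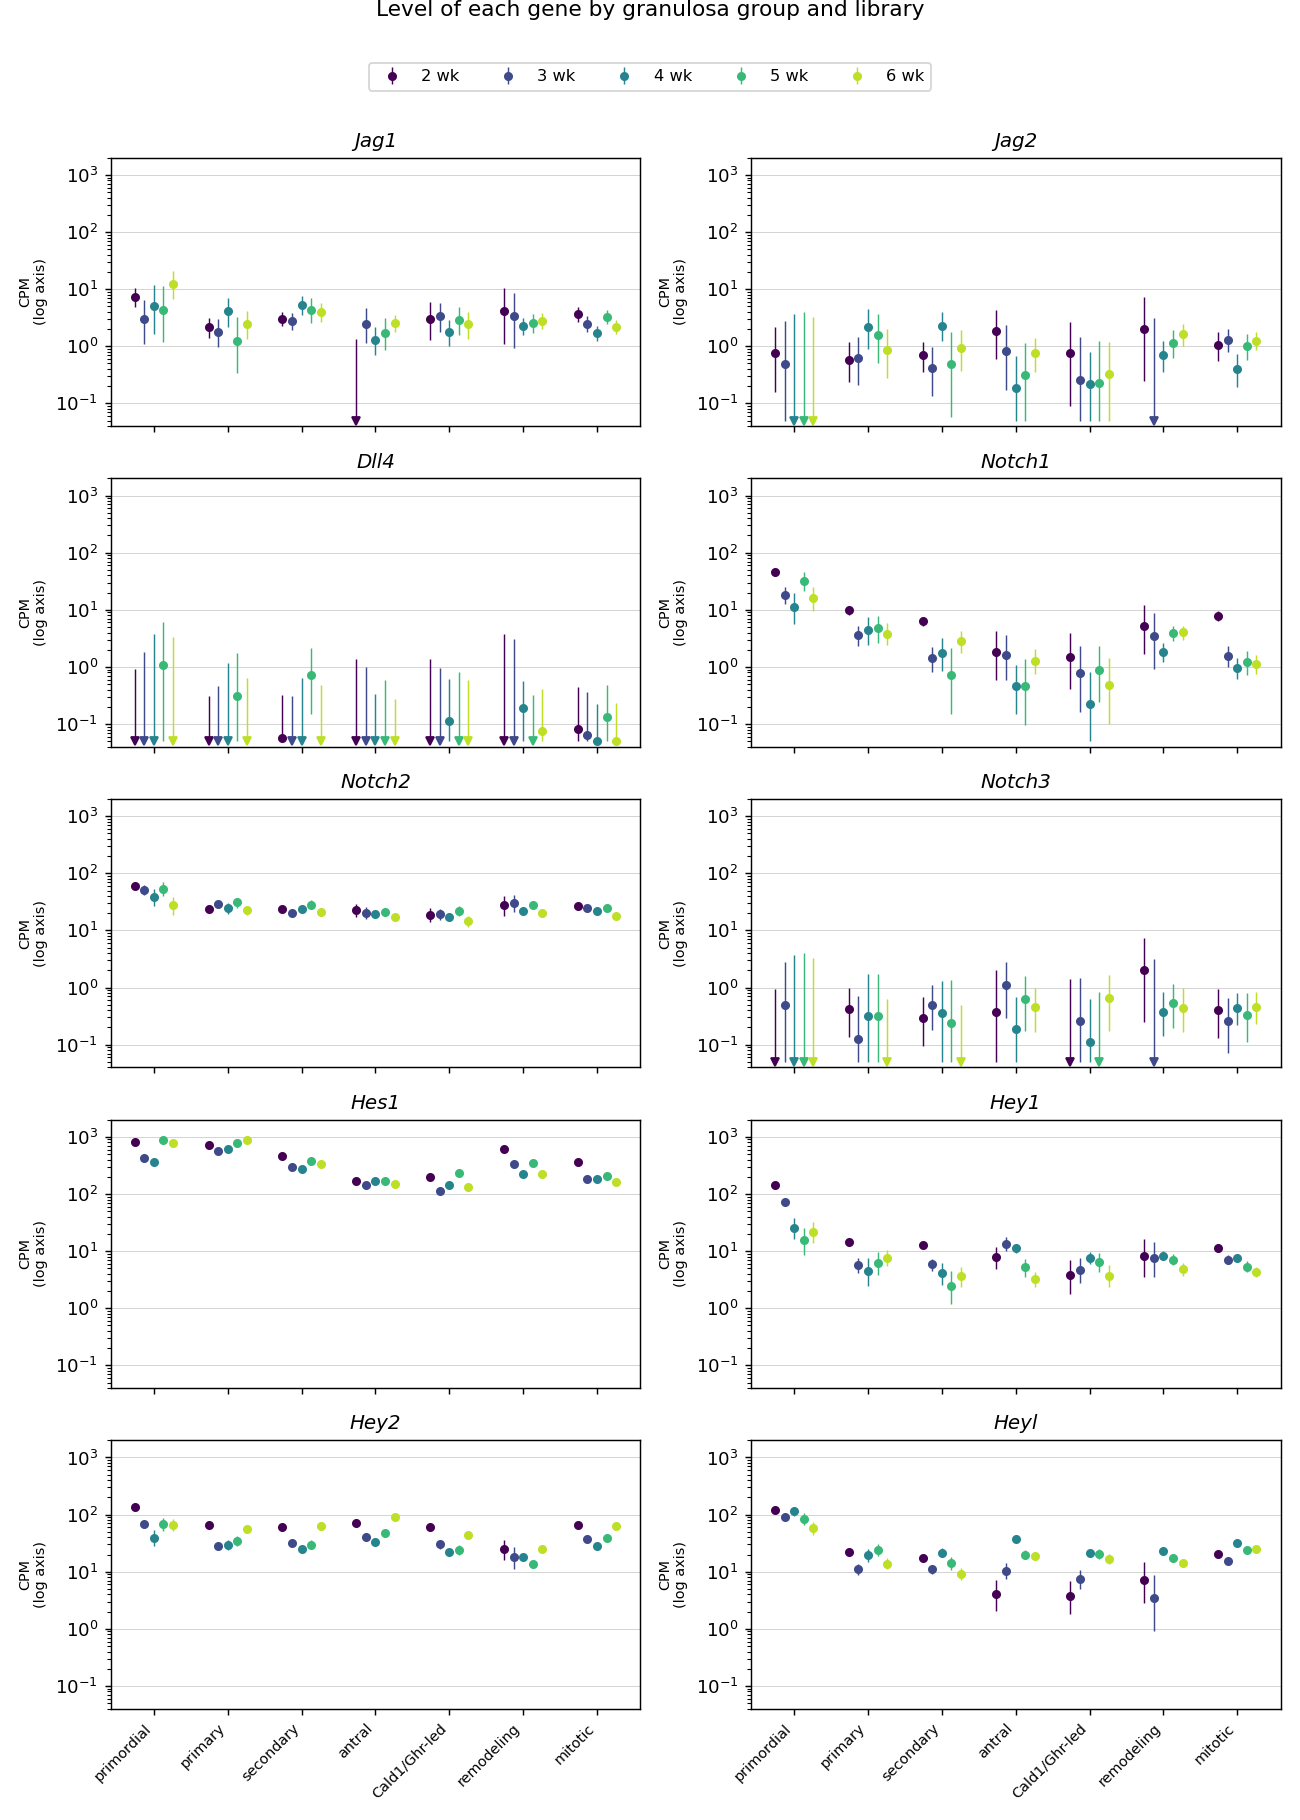
Level of each of the 10 genes (vertical, CPM, log axis) in 7 granulosa groups (horizontal), 1 point per library coloured by age, with exact Poisson 95% intervals; triangles mark 0 UMIs, and values under 0.05 are drawn at 0.05. Notch1, Hey1 and Heyl are lower in the primary than in the primordial group in every library, and Hes1 is lower in the secondary than in the primary group.

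Notch1 in the primordial group stood at 45.3, 18.3, 11.1, 31.9 and 16.005 CPM. Primary cells had 9.73, 3.56, 4.43, 4.73 and 3.83, secondary cells 6.29, 1.42, 1.77, 0.730 and 2.80 and antral cells 1.84, 1.64, 0.464, 0.471 and 1.28. In each library the primordial value was the highest of these 4 groups, and the antral value the lowest except at 3 wk, where the secondary value was. The antral values rest on few UMIs in each library. At 5 wk the secondary and antral values both lay at the floor of 3 counts, so the order of these groups is imprecise. A Notch1 UMI was found in 24.3% of primordial and 1.24% of antral cells, with median depths of 10328 and 14917 UMIs, and in 5.75% and 0.129% after thinning to 2000 UMIs.

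Notch2 stood at 61.0, 51.0, 38.4, 53.8 and 27.6 CPM in primordial and 22.4, 20.5, 19.2, 21.2 and 17.3 in antral cells. Primary over primordial cells gave a pooled ratio of 0.497 (0.443 to 0.558), and primary, secondary, antral and remodeling cells then lay within 17.3 to 30.9. A Notch2 UMI was seen in 24.1% of antral cells.

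Hey1 gave 145, 73.7, 25.2, 15.4 and 21.3 CPM in primordial and 14.1, 5.72, 4.43, 6.31 and 7.66 in primary cells, lower in each library. Secondary, antral and remodeling cells stayed within 2.43 to 13.4.

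Heyl was lower at the same step, with 122, 89.1, 115, 84.6 and 57.8 in primordial and 22.2, 11.1, 19.6, 24.3 and 13.9 in primary cells. Antral cells varied with the library, at 4.05, 10.4, 36.8, 19.8 and 19.1, the lowest value being that of the 177 antral cells of 2 wk.

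Hes1 kept its level one step longer. Primordial cells had 813, 424, 360.4, 869 and 794 CPM and primary cells 728, 568, 619, 796 and 873, overlapping ranges with a pooled ratio of primary over primordial of 1.05 (1.02 to 1.08). Secondary cells had 468, 297, 272, 371 and 336 and antral cells 165, 144, 171, 172 and 151. The antral values spanned the narrowest range of the 4 groups and lay under all values of the other 3.

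Hey2 followed another course, with 136, 68.8, 39.4, 68.1 and 66.7 CPM in primordial, 65.4, 28.2, 29.7, 34.7 and 56.3 in primary and 72.1, 40.1, 33.7, 48.4 and 89.2 in antral cells. Antral cells overlapped primordial cells and were the highest group at 6 wk. Remodeling cells were the lowest group at each age, at 24.6, 17.9, 18.2, 13.9 and 25.4.

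Antral over primordial cells gave 4 calls among 6 members tested, each lower, against 6.17% of all 9983 genes and 4.29% called lower. The pooled ratios were 0.0321 (0.0220 to 0.0455) for Notch1, 0.0833 (0.0722 to 0.0958) for Hey1, 0.220 (0.200 to 0.242) for Heyl and 0.237 (0.228 to 0.245) for Hes1. Primordial cells numbered 316, 209, 129, 85 and 83 by library and antral cells 177, 272, 773, 362 and 751. Pooled ratios divide UMIs summed over the libraries, so these mix stage with age, and their intervals do not cover differences between libraries. With TMM scaling 2 of the 4, Notch1 and Heyl, stayed called. With the Cald1 and Ghr group counted as antral, an alternative chosen after seeing the data, the same 4 were called. Between primordial and primary cells, 3 of 6 members (Notch1, Hey1 and Heyl) were lower in primary cells in each library, against 2.6% of all genes called and 1.96% called lower. For secondary over primary and antral over secondary cells, 0 of 7 and 0 of 6 members were called, where 1.0% and 2.75% of all genes were.

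Stromal markers summed to 89.9 CPM in the primordial group, 13.2 in antral cells and 3361 in stromal-like cells. Heyl stood at 102 in the primordial group and 66.3 in stromal-like cells. The blood endothelial markers summed to 12.1 in the primordial group, in which Dll4 stood at 0.111. The part of such transcripts in the primordial values was not tested.

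Of the other pathway genes, Dtx1 was the 1 of 28 tested that was called in antral over primordial cells, a share no higher than the 4.29% of all genes called lower, with 29.6, 27.7, 25.2, 25.3 and 15.1 CPM in primordial and at most 0.273 in antral cells. Nrarp, called with Dtx1 among 29 tested in primary over primordial cells, where 1.96% of all genes were lower, stood at 36.9, 10.4, 5.05, 10.98 and 8.003 in primordial and at most 0.499 in primary cells. Rbpj kept similar levels, 68.4 in primordial and 72.1 in antral cells over all libraries.

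In remodeling over antral cells, 0 of 5 members tested were called, where 3.33% of all 10803 genes were. Hey2 had ratios of 0.341, 0.446, 0.540, 0.287 and 0.284 and was called once the 4 wk library was left out. Hes1 was higher in remodeling cells in each library, by 3.65, 2.30, 1.31, 2.07 and 1.502-fold, short of the call at 4 and 6 wk. One remodeling cluster had Pamr1 and Bicc1 among its leading genes. It held 82 of 93, 96 of 143, 240 of 1310, 204 of 747 and 169 of 883 cells of the group. The makeup of the remodeling group thus differed between libraries, and its part in these ratios was not tested. Dlk1, a non-canonical ligand, was the 1 of 29 other pathway genes called, near the share of all genes, at 3.84 over 1.11 CPM. The group with Cald1 and Ghr lay between antral and remodeling cells for Hey2 in each library, at 61.6, 30.6, 22.0, 23.9 and 44.0, though 0 of 5 members were called against antral and 0 of 5 against remodeling cells, where 0.779% and 1.62% of all genes were.

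**Figure D4:**
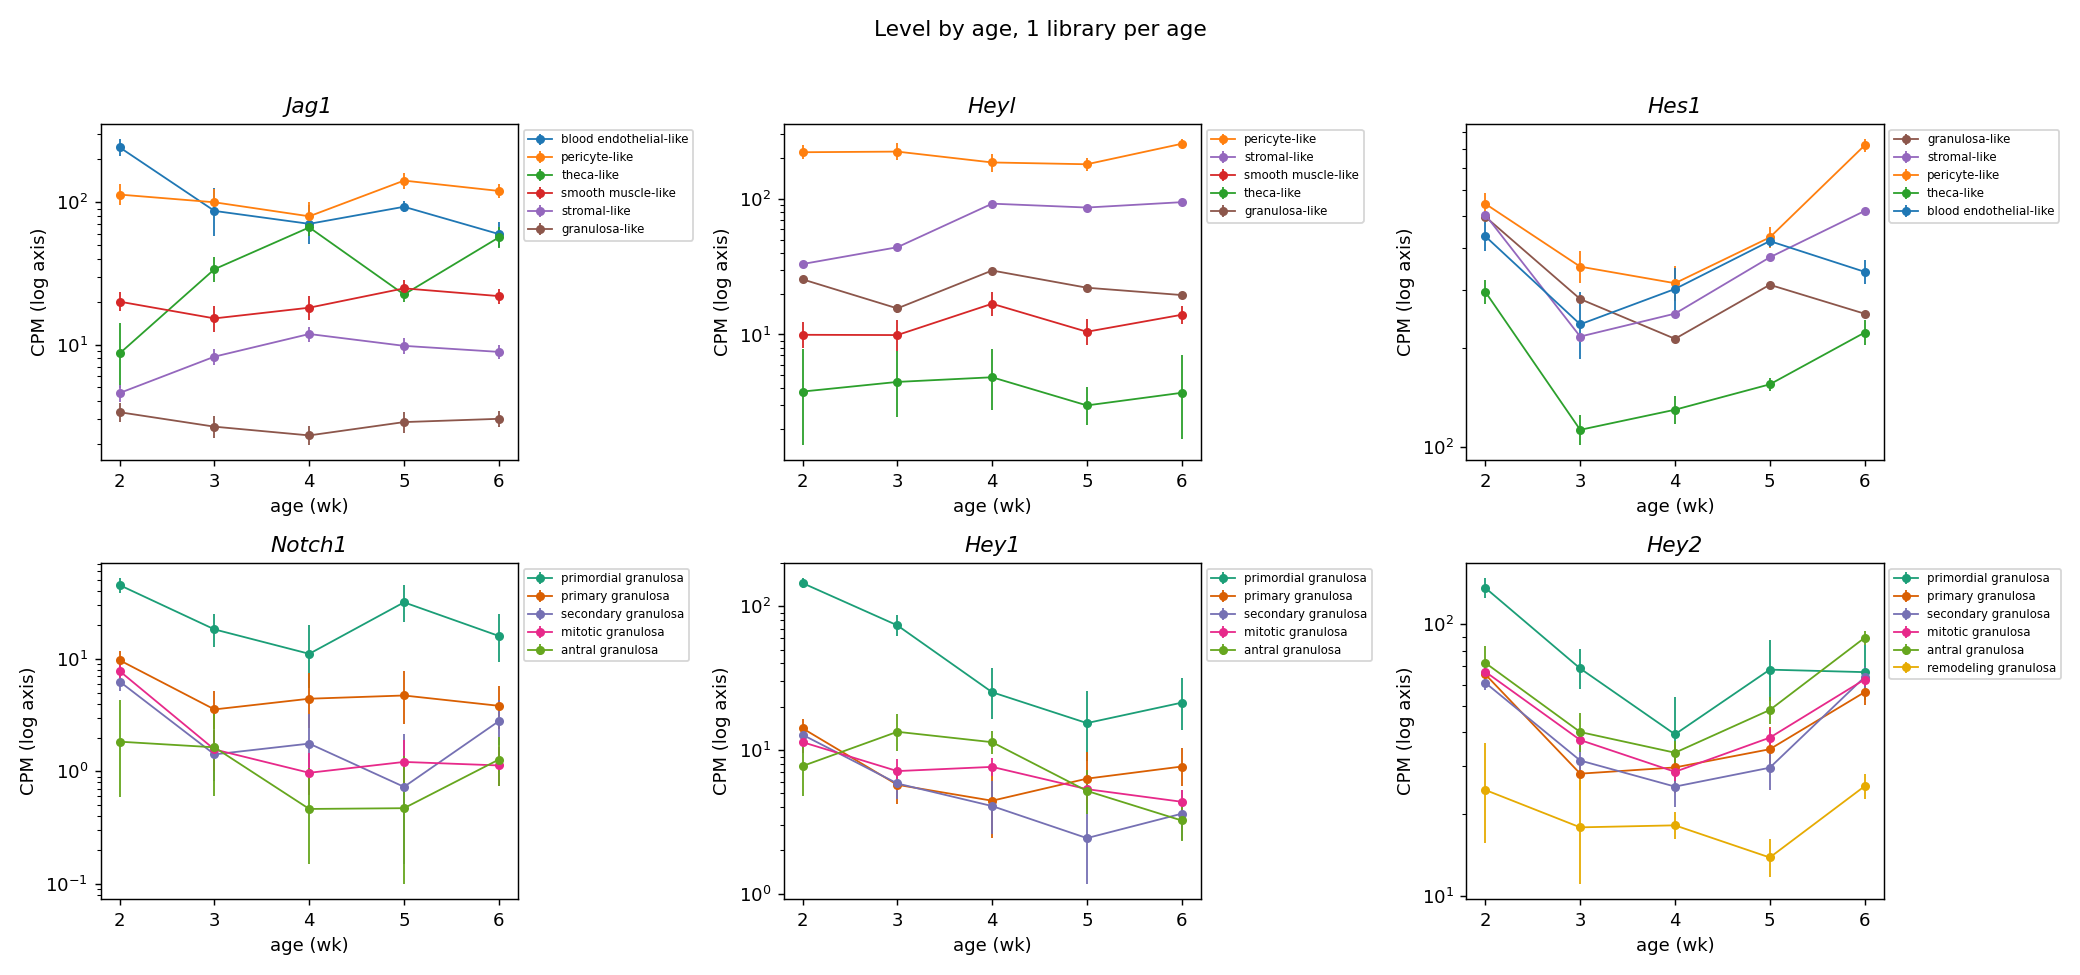
Level by age (horizontal, wk; 1 library per age) on a log axis of CPM, with exact Poisson 95% intervals: Jag1, Heyl and Hes1 in cell classes, and Notch1, Hey1 and Hey2 in granulosa groups. Jag1 goes from 243 to 59.7 in blood endothelial-like cells between 2 and 6 wk, Heyl in stromal-like cells from 33.1 to 94.7, and Hey1 in primordial cells from 145 to 21.3.

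The 5 and 2 wk libraries were compared as single libraries, with a call at 2-fold either way. The matrices of 2, 3 and 4 wk carry Cell Ranger 3.1.0 in their headers and those of 5 and 6 wk 6.0.1, so software and age cannot be told apart. In granulosa-like cells 3 of 7 members tested were called, each lower at 5 wk, against 9.68% of all 11375 genes and 4.87% called lower. They were Notch1, at 0.256 (0.208 to 0.313), Hey1, at 0.273 (0.238 to 0.312), and Hey2, at 0.457 (0.430 to 0.486). Hes1 stood at 0.623 (0.610 to 0.635), and Jag1, Notch2 and Heyl at 0.853, 0.951 and 0.867.

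The makeup of the granulosa-like cells changed over the same time. Primordial cells were 10.51% of the granulosa-like cells at 2 wk and 3.41% at 5 wk, and remodeling cells 3.09% and 29.98%. With the 5 wk groups weighted by their 2 wk shares, the ratio became 0.422 for Notch1, 0.247 for Hey1, 0.524 for Hey2 and 0.898 for Hes1. Within the primordial group, Hey1 stood at 0.106 (0.0575 to 0.179) and was the 1 of 6 members called there, where 4.95% of all genes were and 3.27% were lower. Notch1 stood at 0.703 (0.458 to 1.05) in the same group. Hey1 was also called lower at 5 wk in secondary (0.191, where 3.59% of all genes were called and 2.35% were lower) and mitotic cells (0.471, where 6.83% were called and 3.76% were lower), and Hey2 in secondary cells (0.487). In remodeling cells Heyl was higher at 5 wk, at 2.45 (1.17 to 6.18), 1 of 3 members where 10.5% of genes were called and 6.61% were higher, and in primary cells 0 of 4 were called, where 2.4% were. The clusters that make up the remodeling group differed between these libraries, as given above, and their part in the Heyl ratio was not tested. In the antral group Hes1 and Hey2 had enough UMIs and 0 were called, where 5.61% of 5668 genes were. Hes1 stood at 1.04 (0.930 to 1.16) there and Hey2 at 0.671 (0.559 to 0.807).

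Outside the granulosa-like cells, Heyl and Jag1 were higher at 5 wk in stromal-like cells, with ratios of 2.61 (2.44 to 2.79) and 2.14 (1.77 to 2.60), 2 of 8 members tested against 5.06% of all 10993 genes called and 2.99% called higher. Stromal-like clusters differed in Heyl. A cluster led by Pdgfra and Lrrc17 stayed at 6.87, 9.11, 8.68, 13.96 and 7.36 CPM, whereas one led by Hhip gave 34.3, 57.0, 120, 123 and 127 and one led by Col15a1 and Plac8 gave 58.3, 63.5, 118, 96.4 and 156. The paper uses Hhip as a marker of early theca cells, so the stromal-like class may hold cells that the paper counts as theca. Dlk1 was the 1 of 31 other pathway genes called in stromal-like cells, a share no higher than that of all genes, with 74.5, 20.2, 4.85, 3.21 and 1.42 CPM, lower at each successive age.

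Blood endothelial-like and theca-like cells differed in the direction of Jag1 between the 2 and 5 wk libraries. In blood endothelial-like cells it stood at 0.383 (0.326 to 0.451) at 5 wk over 2 wk, the 1 of 6 members called, where 5.47% of 4574 genes were called and 1.73% were lower. Dll4 stood at 1.34 (1.12 to 1.60) and Notch1 at 0.997 (0.864 to 1.16). The median depth of the blood endothelial-like cells was 4560 UMIs at 2 wk and 15162 at 5 wk, and the arterial genes Gja4 and Sox17 stood at 263 and 237 at 2 wk and at 80.6 and 172 at 5 wk. The part of depth or of arterial cells in the Jag1 values was not tested. In theca-like cells Jag1 was higher at 5 wk, at 2.59 (1.57 to 4.60), resting on 16 UMIs at 2 wk, and Notch2 was lower, at 0.376 (0.279 to 0.513), 2 of 3 members tested against 11.6% of all genes called, 7.55% higher and 4.08% lower. In pericyte-like cells 0 of 5 and in smooth muscle-like cells 0 of 3 members were called, where 4.19% and 3.77% of all genes were. Notch3 in pericyte-like cells stood at 1.01 (0.904 to 1.13).

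For each gene, the 3 genes of most similar profile were taken by Pearson's r of log2 levels (CPM plus 1) over 15 groups, among 14578 genes. The groups share libraries, so r is a description. Dll4 was closest to Sox7 (0.988), Rbp7 and Pcdh12, and Jag2 to Nos3 (0.964), Cyyr1 and Gm32688. Nos3 encodes the endothelial nitric oxide synthase. Notch3 was closest to Bhlhe22 (0.971), Ndufa4l2 and Abcc9, the last a pericyte marker used in the naming. Jag1 lay nearest Hoxb4 (0.917), Lamc1 and Fignl2, and Notch1 nearest Ttpal (0.942), Ets1 and Dpysl2. Hey2 was closest to Lrrc10b (0.931), Fbxl17 and Zswim5, and Heyl to Fam220a (0.902), Lnpk and Naalad2. The broad genes Notch2 and Hes1 lay nearest Snx24 (0.895), Arhgef10l and Impact, and Tcf12 (0.860), Sept2 and Tril, respectively, and Hey1 nearest Tcf12 (0.892), Zbtb10 and Dedd. Among the 10 genes, Jag2 and Dll4 were the closest pair (0.894).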

How the data were processed

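Single-cell UMI counts per gene and cell were deposited by the authors as 1 filtered matrix per library, made from 10x Genomics 3′ v3.1 libraries. The submitters' processing notes name Cell Ranger 3.1.0, Seurat 4.1.0 and mm10, whereas the file headers give Cell Ranger 3.1.0 for 2 to 4 wk and 6.0.1 for 5 and 6 wk. Cells were clustered here from the counts with Seurat 5.3.0 in R 4.3.3 (2000 variable genes, 30 principal components, integration across libraries, resolution 1), and granulosa-like cells were clustered again. Clusters were named from fixed markers (at least 3 detected, and clusters of at least 50% called doublets or 90% of 1 library left unnamed), and granulosa groups from a correlation of at least 0.7 with the study's cluster profiles together with at least 3 detected markers of that stage, or, under that correlation, from stage markers alone (mean z of at least 0.8), with limits set after the clusters were seen. Ahead of these profile rules, granulosa clusters with at least 3 detected stromal markers were left unnamed. Those with at least 5 detected mitotic markers were then named mitotic. Doublets were scored with Scrublet in scanpy 1.11.5, and single doublet calls stayed in except under an alternative. The Notch genes, the pathway list and the markers were chosen with earlier results of these data known. Of the 10 members, 8 were among the variable genes.

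UMIs were summed per group and library and scaled to counts per 1000000 (CPM). Intervals are exact Poisson for levels, exact conditional for ratios and exact binomial for shares, with 3 counts as the floor at 0. The named genes were the 10 members, the pathway genes called and the 3 most similar genes of each member. With 1 library per age there was no test between ages. The ratio rules were checked on simulated Poisson counts with known folds, drawn from 1 mean profile. These counts hold no variation between cells or libraries, so the check covers counting error only. TMM factors came from edgeR 4.0.16. Alternatives were other scalings, a minimum of 50 UMIs, stricter cells (at least 1000 genes and under 10% mitochondrial UMIs), doublets left out, resolution 0.6, no integration, Notch genes left out of the components, and each library left out.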

Additional observations from a re-analysis of the deposited data

Results flagged for a closer look

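At 5 wk over 2 wk the ratio of Jag1 differed in direction between classes. It was 2.59 for theca-like cells and 2.14 for stromal-like cells, against 0.383 in blood endothelial-like cells. From 3 to 5 wk the theca-like level was lower and the blood endothelial-like level slightly higher, so neither course was steady with age. Each ratio compares a single library with another, and the difference between the classes was not tested.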

How the results depend on the processing

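Of 104 counts of called members recomputed under alternatives, 97 stayed within 1.5 times the reported count. For granulosa-like over mesenchymal cells, leaving out 1 library gave 3 to 6 calls, with 6 without 2 wk, and stricter limits on cells gave 2, without Jag1. For antral over primordial cells TMM scaling gave 2 calls (Notch1 and Heyl). For remodeling over antral cells a minimum of 50 UMIs gave 1 call (Notch1), and leaving out 1 library gave 0 to 1, with Hey2 called without 4 wk. For 5 wk over 2 wk in antral cells, 1 call arose without integration (Hes1), 1 with at least 50 UMIs (Heyl) and 1 with the Cald1 and Ghr group counted as antral (Heyl), an alternative chosen after seeing the data. A lower minimum tests more genes, a call over fewer libraries is easier to reach, and the cause of the other changes was not tested. The share of all genes called under each alternative is not given here. Of 620 values of single members, 602 kept their side, 18 moved and 0 changed direction. TMM put the median log2 ratio of all genes at -0.32 for blood endothelial-like and -0.23 for pericyte-like cells, from -0.21 and -0.16. Antral over primordial cells without integration gave no value, since no primordial group was found. No paired analysis between ages was possible because each age is 1 library and all replicate numbers are 1. Ratios behind the calls between cell groups were taken within each library, whereas pooled ratios were of UMIs summed over the libraries. Members under 200 UMIs in a comparison were not read at this depth.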

Other observations

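Germ cells were too few to form a class, but 19 cells held at least 3 of 5 germ cell genes, 8, 5, 3, 2 and 1 of them from 2 to 6 wk, and 11 lay in unnamed clusters. These cells were picked by their own expression, so their values are a description. Together they held Jag1 at 115 CPM (94.99 to 137), with a UMI in 10 cells. Jag2 stood at 111 (91.5 to 133), with 114 of the 1140 Jag2 UMIs of all cells, from 8 of them. Dll4 had 0 UMIs there, which allows up to 2.92 CPM at 3 counts, and Notch1 stood at 4.86. The 8503 cells without a class held 1.71% (Dll4) to 16.3% (Jag2) of the UMIs of a member.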
